A study of Mus musculus with 384 samples.

Results

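Chemokine genes were taken as the protein-coding genes of the GENCODE vM1 annotation (mouse build mm9) whose symbol starts with Ccl, Cxcl, Xcl, Ccr, Cxcr or Xcr followed directly by a digit, together with Cx3cl1 and Cx3cr1. The rule gave 57 genes of 22350 protein-coding genes, namely 37 ligands and 20 receptors. It uses names only and no measured value. Accessible chromatin was measured by Pi-ATAC, which tags open DNA with a transposase in fixed single cells stained for proteins, in cells of 1 breast tumor from an MMTV-PyMT mouse. In this model a mammary tumor virus promoter drives a viral oncogene in the mammary epithelium, and mice were killed at 3 months of age according to the methods. Cells were stained for EpCAM, an epithelial adhesion protein, and CD45, a leukocyte phosphatase, and sorted singly into 4 plates of 96 wells. The labels give 1 group for all wells and no stain for any well, and the sort took both kinds of cells, so tumor and immune cells cannot be told apart here and shares do not mirror the tumor.

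Chemokines are small secreted proteins that guide migrating leukocytes. They bind receptors that cross the membrane and signal through inhibitory G proteins, and these signals activate integrins. The position of conserved cysteines divides ligands and their receptors into CC, CXC, XC and CX3C families. Inflammatory ligands are made on demand by many cell types, tumor cells and macrophages included, while homeostatic ligands place lymphocytes in lymphoid organs, skin and gut. Receptors are carried mainly by leukocytes.

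The deposited data form a single list of 50000 windows, each 500 bp wide and called on all cells together, with neither a score nor a read count for a window. There were no replicates, and the depth behind a window is unknown. A window therefore says that a position ranked among those kept, and a gene without a window is not shown to be closed. By the running numbers in the peak names, the list holds about 41.5% to 51.8% of the called peaks on chromosomes 7, 8, 9 and X. On the other 16 it holds about 23.6% to 26.5%. These shares are estimates, since the highest number kept on each chromosome stands in for its last called peak. The windows lie at 28.2 per Mb on chromosomes 7, 8, 9 and X and at 16.4 per Mb on the other 16. Among markers fixed for the label, promoters with a window were found for 2 of 6 epithelial genes (Cdh1 and Muc1), 3 of 5 leukocyte genes, 2 of 3 T cell genes, 0 of 3 macrophage genes, 0 of 2 B cell genes, 0 of 2 endothelial genes and 2 of 2 fibroblast genes (Col1a1 and Pdgfra). Over all protein-coding genes 43.5% had such a window, and lists this short do not show which cell types are present. Epcam and Ptprc, which encode the stained proteins, had their nearest windows at 1255 bp and 16678 bp from a start site.

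The sequences that follow are stretches of 150 bases from these windows, read from mm9 5′ to 3′ on the strand of the gene and chosen to hold as many letters of 10 factor words as possible with at most 30 exon bases. Capitals mark the words, which were searched on both strands: TGANTCA for AP-1, GAGGAAG for PU.1 and Spic, TGTGGTT for RUNX, TTGCNNAA for CEBP, GAAA, any 2 bases and GAAA for IRF, TTCCNGGAA for STAT, CATTCC for TEAD, ACGTG for the HIF core, CCA, any 2 bases, AGG, any base and GGC for CTCF, and the NF-kB consensus. Several words share the letters TTCC or GGAA and can overlap. A match is a description of the sequence and not a bound site.

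The first set shows the 5 members whose nearest promoter window held the NF-kB word, with the neutrophil chemokines Cxcl3 (chr5:91214972-91215121, plus strand), Cxcl1 (chr5:91320075-91320224, plus strand) and Cxcl2 (chr5:91332777-91332926, plus strand), the interferon-induced Cxcl10 (chr5:92777979-92778128, minus strand) and the Ccl20 receptor Ccr6 (chr17:8435179-8435328, plus strand).
Cxcl3: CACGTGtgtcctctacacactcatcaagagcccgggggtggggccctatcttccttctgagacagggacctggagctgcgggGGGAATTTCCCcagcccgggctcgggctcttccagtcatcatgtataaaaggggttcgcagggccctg
Cxcl1: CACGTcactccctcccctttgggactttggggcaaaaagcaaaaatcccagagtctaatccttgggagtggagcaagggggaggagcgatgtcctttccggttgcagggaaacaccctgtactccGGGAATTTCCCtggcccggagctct
Cxcl2: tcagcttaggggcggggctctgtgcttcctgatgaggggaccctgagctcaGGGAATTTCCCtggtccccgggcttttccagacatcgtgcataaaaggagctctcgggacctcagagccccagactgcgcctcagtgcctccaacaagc
Cxcl10: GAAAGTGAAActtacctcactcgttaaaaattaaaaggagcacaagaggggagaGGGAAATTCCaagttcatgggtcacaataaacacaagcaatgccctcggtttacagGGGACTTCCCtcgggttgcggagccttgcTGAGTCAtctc
Ccr6: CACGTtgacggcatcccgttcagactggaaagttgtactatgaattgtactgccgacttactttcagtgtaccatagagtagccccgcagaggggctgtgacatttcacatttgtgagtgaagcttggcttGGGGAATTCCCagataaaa
The 3 neutrophil chemokines carried the same 11 bases, GGGAATTTCCC, at almost the same place. The 10-base NF-kB matches within it, which overlap by reading both strands, lay between 75 and 65 bp upstream of the start site of Cxcl3, between 67 and 57 bp upstream in Cxcl1 and between 69 and 59 bp upstream in Cxcl2. Over the 200 bases from 150 bp before to 50 bp after the start site, the aligned promoters were 60.8% identical for Cxcl1 and Cxcl3, 63.0% for Cxcl1 and Cxcl2, and 61.2% for Cxcl2 and Cxcl3, against 48.0% for Cxcl1 and Cxcl10 and 41.2% for Cxcl1 and Cxcl5. These genes are paralogs. Cxcl10 carried NF-kB words ending 94 and 150 bp upstream of its start site, an AP-1 word ending 68 bp upstream and, farther out, an IRF word. In Ccr6 the NF-kB matches lay between 81 and 71 bp upstream of an internal start site.

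The second set shows the other promoter windows whose stretch held a word, at the ligands Ccl26 (chr5:136040205-136040354, minus strand), Ccl25 (chr8:4325259-4325408, plus strand) and Ccl4 (chr11:83475792-83475941, plus strand) and the receptors Cxcr2 (chr1:74200443-74200592, plus strand), Cxcr4 (chr1:130489077-130489226, minus strand) and Cxcr3 (chrX:98929867-98930016, minus strand).
Ccl26: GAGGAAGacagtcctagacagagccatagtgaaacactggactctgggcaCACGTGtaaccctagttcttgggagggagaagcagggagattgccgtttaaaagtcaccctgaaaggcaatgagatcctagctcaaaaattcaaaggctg
Ccl25: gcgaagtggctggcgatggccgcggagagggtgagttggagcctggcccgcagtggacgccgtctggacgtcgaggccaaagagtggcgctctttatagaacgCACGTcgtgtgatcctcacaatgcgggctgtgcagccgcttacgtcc
Ccl4: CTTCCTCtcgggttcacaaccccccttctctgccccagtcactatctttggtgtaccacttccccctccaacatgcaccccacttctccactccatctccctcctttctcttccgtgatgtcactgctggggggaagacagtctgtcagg
Cxcr2: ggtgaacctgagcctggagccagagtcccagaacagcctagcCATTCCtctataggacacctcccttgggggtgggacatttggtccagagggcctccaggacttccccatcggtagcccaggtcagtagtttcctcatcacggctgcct
Cxcr4: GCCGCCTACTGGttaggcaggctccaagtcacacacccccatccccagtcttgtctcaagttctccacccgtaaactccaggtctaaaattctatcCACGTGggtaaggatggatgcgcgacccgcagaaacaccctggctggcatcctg
Cxcr3: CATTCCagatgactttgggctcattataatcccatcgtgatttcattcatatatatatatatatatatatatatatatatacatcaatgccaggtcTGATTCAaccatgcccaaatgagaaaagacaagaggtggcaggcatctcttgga
These stretches hold no NF-kB word. The Cxcr4 stretch holds the CTCF word, which was found in 1.58% of all windows, and a HIF core. Those of Cxcr2 and Cxcr3 both hold the TEAD word, and that of Ccl4 the PU.1 and Spic word.

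The third set shows windows over 1 kb from any start site that were nearest to a member and held 4 or more of the 10 words, at Cxcl2 (chr5:91338064-91338213, plus strand, 5221 bp downstream of the start site), Cx3cl1 (chr8:97312106-97312255, plus strand, 15917 bp downstream), Ccl5 (chr11:83348773-83348922, minus strand, 4715 bp upstream), Ccl9 (chr11:83386272-83386421, minus strand, 2479 bp downstream), Ccl6 (chr11:83430288-83430437, minus strand, 23755 bp upstream), Cxcr4 (chr1:130519324-130519473, minus strand, 30462 bp upstream) and Ccr4 (chr9:114436298-114436447, minus strand, 30767 bp upstream). Each distance is that of the window centre.
Cxcl2: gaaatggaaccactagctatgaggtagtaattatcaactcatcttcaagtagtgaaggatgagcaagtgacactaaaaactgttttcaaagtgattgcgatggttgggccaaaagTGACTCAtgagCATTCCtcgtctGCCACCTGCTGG
Cx3cl1: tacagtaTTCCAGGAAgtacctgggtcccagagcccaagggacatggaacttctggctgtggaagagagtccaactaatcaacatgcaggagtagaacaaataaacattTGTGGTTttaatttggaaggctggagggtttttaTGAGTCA
Ccl5: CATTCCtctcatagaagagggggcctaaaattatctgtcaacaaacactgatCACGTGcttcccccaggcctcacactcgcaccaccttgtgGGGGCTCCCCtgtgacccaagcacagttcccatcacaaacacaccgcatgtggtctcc
Ccl9: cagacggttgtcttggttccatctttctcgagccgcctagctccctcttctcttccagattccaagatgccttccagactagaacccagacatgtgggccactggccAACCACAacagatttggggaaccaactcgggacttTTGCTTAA
Ccl6: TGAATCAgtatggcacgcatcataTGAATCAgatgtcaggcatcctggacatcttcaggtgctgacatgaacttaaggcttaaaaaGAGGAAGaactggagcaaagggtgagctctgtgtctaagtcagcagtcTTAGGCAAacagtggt
Cxcr4: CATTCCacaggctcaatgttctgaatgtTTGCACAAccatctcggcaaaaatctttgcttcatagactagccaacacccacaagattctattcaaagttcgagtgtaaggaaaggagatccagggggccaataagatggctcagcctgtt
Ccr4: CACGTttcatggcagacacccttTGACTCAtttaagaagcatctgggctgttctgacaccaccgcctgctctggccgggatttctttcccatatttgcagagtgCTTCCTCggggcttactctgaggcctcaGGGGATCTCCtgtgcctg
The 150 bases of Ccr4 hold all 4 words of its window (HIF core, AP-1, PU.1 and Spic, and NF-kB). The window near Ccl6 held 5 words, the most of any distal window nearest to a member.

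A promoter window, here a window whose centre lay within 1 kb of any annotated start site of the gene, was found for 9 of 37 ligands (24.3%, exact binomial interval 11.8% to 41.2%) and 7 of 20 receptors (35.0%, interval 15.4% to 59.2%). The share over all protein-coding genes was 43.5%. Together 16 of 57 members had a promoter window (28.1%, interval 17.0% to 41.5%). The intervals of ligands and receptors overlap, and they cover counting error only. Within 50 kb, at least 1 window was found for 28 of 37 ligands (75.7%) and 20 of 20 receptors, against 84.6% of all protein-coding genes.

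Start sites of these genes are poor in CpG, and promoter windows followed CpG content across the genome. The 2 kb around the start site held a median of 24.0 CpG in ligands and 22.5 in receptors, against 61.0 over all protein-coding genes. In 10 classes of CpG content, low to high, the percentage of protein-coding genes with such a window ran from 2.98% to 70.7%, and 49 of 57 members fell in the lower 5 classes. Given the classes of their genes, the mean share was 25.3% for ligands, beside an observed 24.3%, and 21.1% for receptors, beside an observed 35.0%. The exact interval of the receptor share includes the class mean. CpG was counted at the outermost start site, while the class shares and the observed shares count windows at any start site. At the outermost start site alone 5 of 20 receptors had a promoter window (25.0%). No class share for the outermost start site alone is given here, so this count cannot be set against the class mean. In class 4 (28 to 41 CpG) 4 of 6 ligands had a promoter window, where the class share was 24.0%, and these were Cxcl3, Cxcl10, Ccl26 and Ccl22. Cxcl12 and Cxcl14, in class 9, had none, where the class share was 68.3%.

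**Figure D1:**
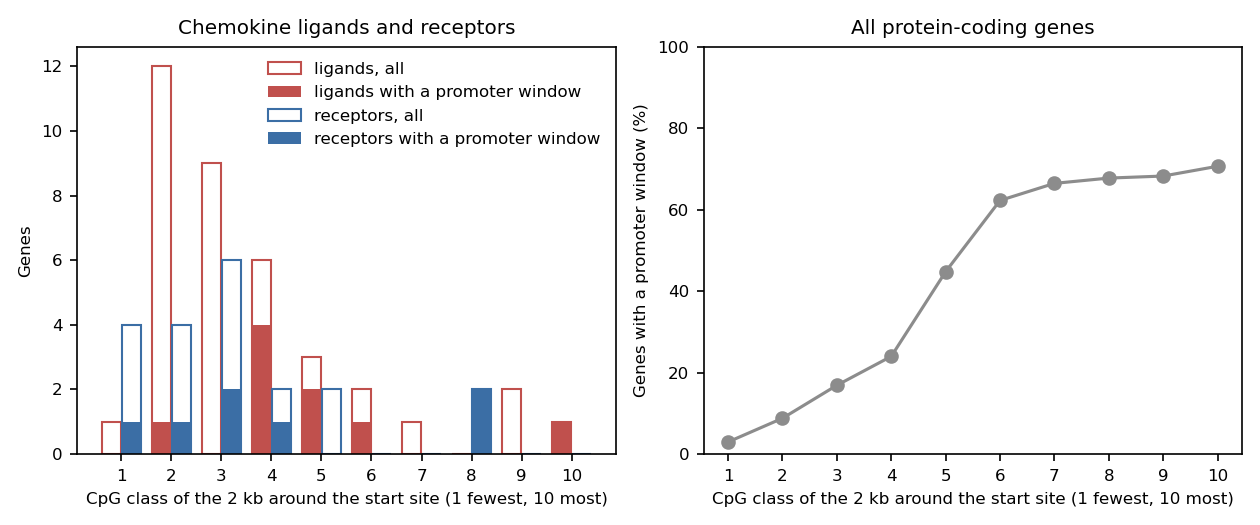
The left panel counts ligands and receptors (y axis, genes) in 10 classes of CpG content around the start site, with filled bars for genes with a promoter window, and the right panel gives the percentage of all 22350 protein-coding genes with a promoter window in each class. Most members sit in classes 1 to 5, where the share over all genes runs from 2.98% to 44.8%.

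On chromosome 5, 5 of 10 ligands had a promoter window (50.0%), against 47.8% of all protein-coding genes of that chromosome. Cxcl1, Cxcl2 and Cxcl3 attract neutrophils through Cxcr2. Cxcl3 had a window centred 50 bp upstream of its start site (chr5:91214829-91215328), and Cxcl1 had its nearest window 0.121 kb upstream (chr5:91319896-91320395). Cxcl2 had promoter windows 0.161 kb upstream (chr5:91332486-91332985) and 0.870 kb upstream (chr5:91331777-91332276). Their neighbours Cxcl5, another Cxcr2 ligand, and Cxcl15 had no promoter window and lay 13544 bp and 8481 bp from the nearest. The cluster from Cxcl5 to Cxcl2 held 12 windows in 0.245 Mb, or 49.1 per Mb, against 26.1 per Mb around the protein-coding genes of chromosome 5, and of these 8 were nearest to a member. Between the Cxcl3 window and the next, 95.8 kb away, there was none, and this stretch covers Cxcl15.

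Further along chromosome 5, Cxcl10, which draws T cells through Cxcr3, had a window 30 bp upstream (chr5:92777695-92778194) and another 4774 bp upstream in an intron of Art3 (chr5:92782439-92782938). Both held the NF-kB, IRF and CEBP words. Cxcl9, its neighbour with the same receptor, had no promoter window, and its nearest lay 20840 bp away. Ccl26, an eotaxin in human, had overlapping promoter windows 0.697 kb upstream (chr5:136039886-136040385) and 0.997 kb upstream (chr5:136040186-136040685), and the nearest to Ccl24, an eotaxin that binds Ccr3, lay 8477 bp away. Outside chromosome 5, 4 of 27 ligands had a promoter window (14.8%), against 43.5% of the protein-coding genes of all chromosomes.

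The remaining ligand promoter windows lay on chromosomes 4, 8 and 11. Ccl22, a chemokine of regulatory T cells and Th2 cells that acts through Ccr4, had a window 4 bp from its start site (chr8:97269244-97269743), another 1208 bp downstream in its intron (chr8:97270538-97271037) and one more 9909 bp upstream (chr8:97259331-97259830). Ccl4, which draws macrophages and T cells, had a window 0.253 kb upstream (chr11:83475583-83476082). Ccl27a, a skin chemokine that binds Ccr10, had a window 82 bp from the nearest of its 17 annotated start sites (chr4:41720306-41720805). Ccl25, the gut and thymus chemokine that binds Ccr9, had a window 7 bp from a start site (chr8:4324953-4325452), which also lies within 1 kb of the start of the RNA-binding protein gene Elavl1. Its windows 8536 bp downstream in an intron (chr8:4333527-4334026), 8081 bp downstream in an exon (chr8:4357419-4357918) and 31089 bp downstream (chr8:4380427-4380926) were also nearest to it.

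**Figure D2:**
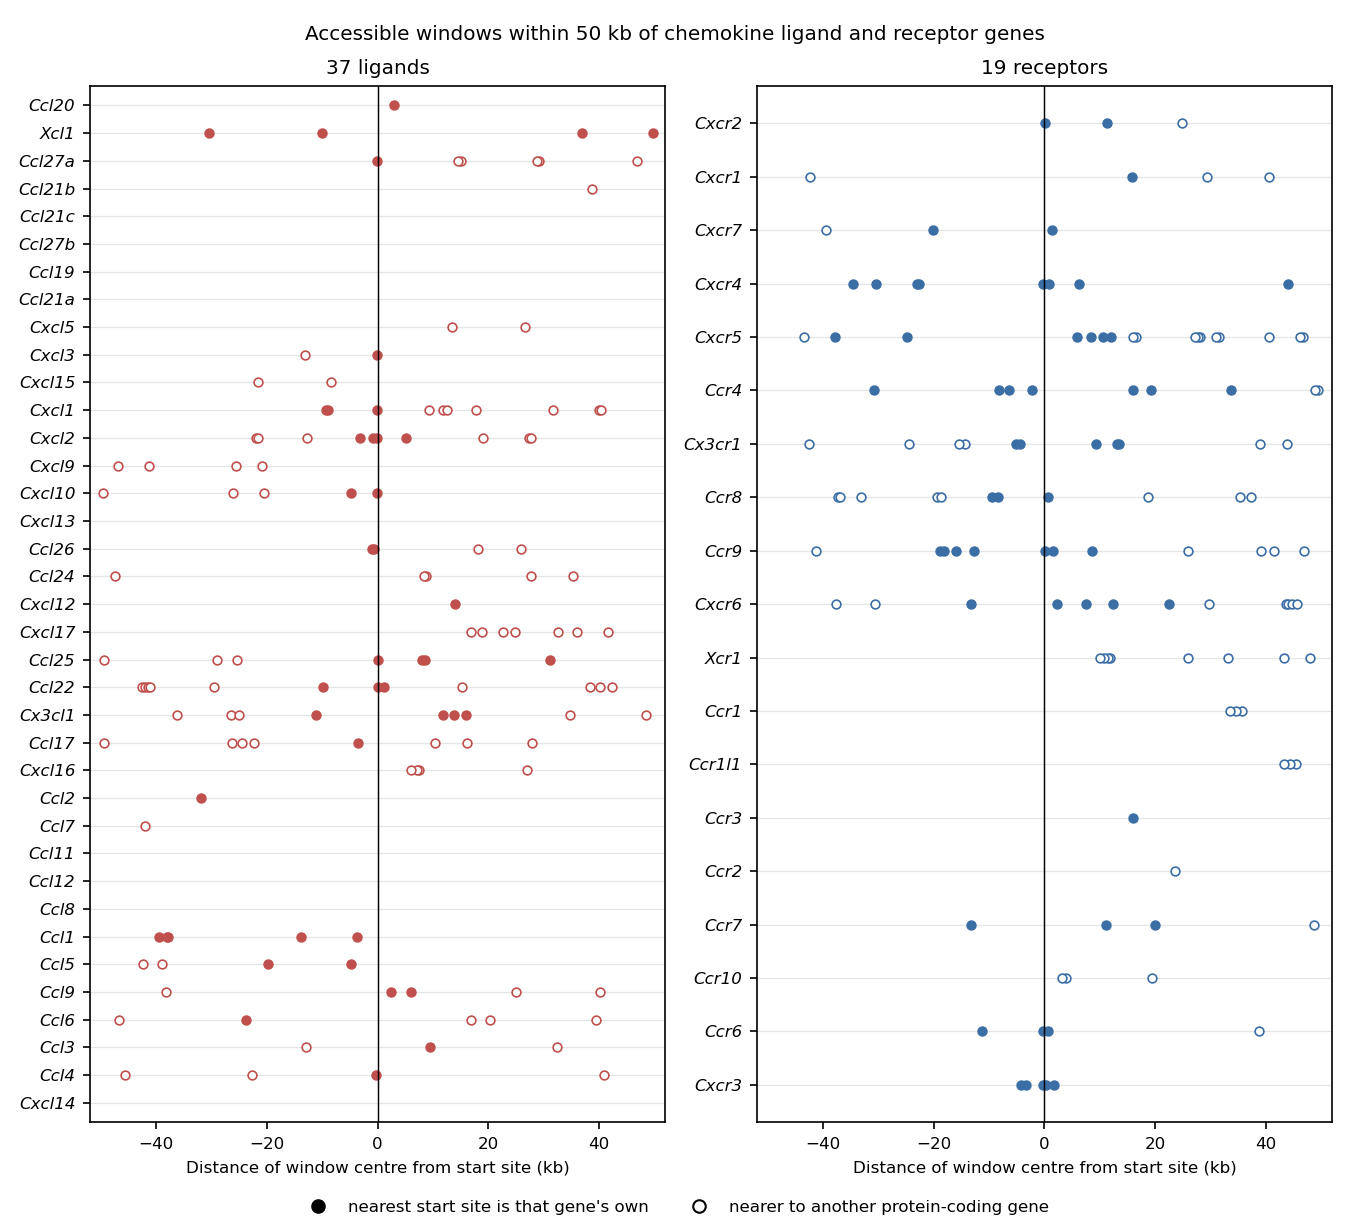
Each row is a gene, with 37 ligands on the left and 19 of the 20 receptors on the right, and each circle is a window by the distance of its centre from the nearest start site of the gene (kb, upstream negative). Filled circles are windows whose nearest protein-coding start site is that gene's own, and open circles are nearer to another gene. Of the ligands 9 have no circle, and each receptor drawn has at least 1.

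Among the receptors, Cxcr4, Cxcr3 and Ccr6 had 2 promoter windows each. Cxcr4, the Cxcl12 receptor of most leukocytes and of many tumor cells, had them 0.238 kb upstream (chr1:130488858-130489357) and 0.852 kb downstream (chr1:130487765-130488264). Cxcr3, the receptor of effector T cells and NK cells, had them 0.232 kb upstream (chrX:98929590-98930089) and 0.331 kb downstream (chrX:98929027-98929526). Those of Ccr6 (chr17:8434936-8435435 and chr17:8435759-8436258) lay 0.205 kb upstream and 0.618 kb downstream of internal start sites, and its outermost start site had none.

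Single promoter windows were found for Cxcr2, Ccr9 and Ccr8, among others. Cxcr2, the neutrophil receptor of Cxcl1 and Cxcl2, had its window 22 bp from a start site (chr1:74200340-74200839). Ccr9 had its window 22 bp from its outermost start site (chr9:123587329-123587828), which lies within 1 kb of the starts of Slc6a20a and Gm17200. At its other start sites the nearest window was 1560 bp downstream (chr9:123677657-123678156). Ccr8, a receptor of regulatory T cells, had its window 0.667 kb downstream (chr9:120001668-120002167). Cxcr7, a scavenger of Cxcl12 with a window 1304 bp downstream, was the member just outside the 1 kb limit. With the outermost start site alone, 5 of 20 receptors had a promoter window (25.0%), and the like share over all protein-coding genes is not given here.

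Around the start sites, receptors had more windows than ligands, but the members are spread unevenly over chromosomes. Within 50 kb there were 83 distinct windows for ligands, at 32.9 per Mb (exact Poisson interval 26.2 to 40.8), and 94 for receptors, at 58.7 per Mb (interval 47.5 to 71.9), against 29.1 per Mb around all protein-coding genes. No window was shared between a ligand and a receptor. Of the ligands 5 of 37 lie on chromosomes 7, 8, 9 and X, and of the receptors 13 of 20, with 12 on chromosome 9. On these 4 chromosomes the density was 77.1 per Mb for ligands (interval 52.0 to 110) and 71.5 for receptors (interval 55.5 to 90.7), against 40.7 for protein-coding genes. On the other 16 it was 24.9 for ligands (interval 18.6 to 32.5, 53 windows) and 40.0 for receptors (interval 26.1 to 58.7, 26 windows), against 25.8 for protein-coding genes. The order of ligands and receptors thus differed between the chromosome sets, and the intervals overlap in both. The part of the higher share of kept peaks in the receptor density was not tested.

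**Figure D3:**
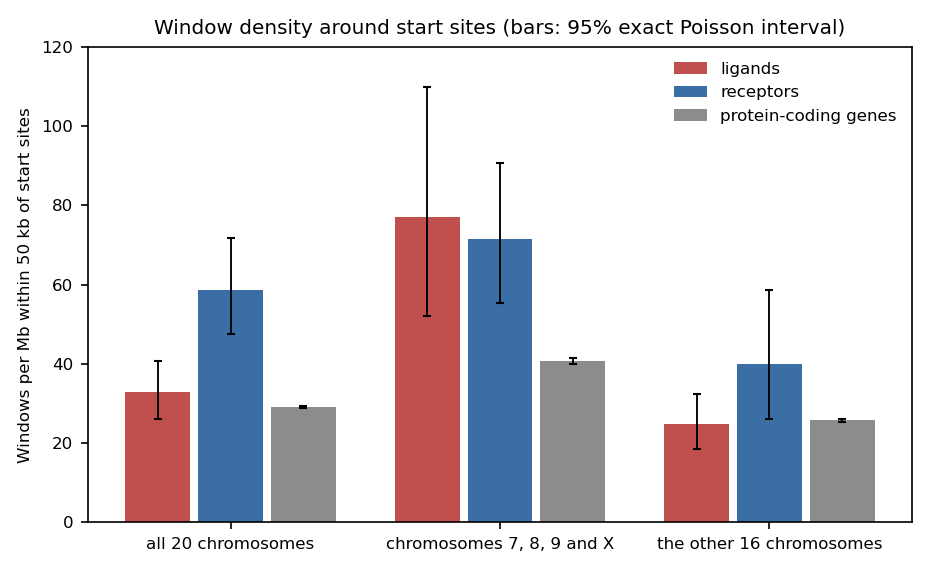
Bars give windows per Mb within 50 kb of start sites (y axis) for ligands, receptors and all protein-coding genes, on all 20 chromosomes, on chromosomes 7, 8, 9 and X, and on the other 16. Error bars are 95% exact Poisson intervals for counting error. The gap between ligands (32.9) and receptors (58.7) on all chromosomes is not seen on chromosomes 7, 8, 9 and X (77.1 and 71.5). On the other 16 receptors lie higher than ligands (40.0 and 24.9), with overlapping intervals.

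Promoter windows did not follow density on chromosome 9. Of its 12 receptors 3 had a promoter window (25.0%), against 49.8% of the protein-coding genes of that chromosome, while windows within 50 kb lay at 74.1 per Mb for receptors, against 47.1 for protein-coding genes. On the 16 chromosomes other than 7, 8, 9 and X the promoter shares were 7 of 32 ligands (21.9%) and 3 of 7 receptors (42.9%), against 42.8% of protein-coding genes. Chromosome 11 holds 12 ligands, of which only Ccl4 had a promoter window (8.33%), against 42.8% of the protein-coding genes of that chromosome. Windows within 50 kb lay there at 26.6 per Mb for ligands and 27.2 for protein-coding genes.

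Of the members with most windows nearest to their own start site, 7 were receptors, and 6 of these 7 lie on chromosomes 9 and X, which are among the 4 chromosomes with the larger share of kept peaks. Cxcr4 led with 8, and all windows within 50 kb of it were nearest to it. Besides the promoter they lay 6210 bp and 44028 bp downstream (chr1:130482407-130482906 and chr1:130444589-130445088) and 22595, 23065, 30462 and 34542 bp upstream (chr1:130511215-130511714, chr1:130511685-130512184, chr1:130519082-130519581 and chr1:130523162-130523661). Of the 4 upstream windows 3 held the RUNX word, read by RUNX factors of blood cells, beside 11.6% of all windows, and the IRF word was in 3 of the 8 windows, beside 5.51%. Such words of single genes were picked from 10 after the matches had been seen, and they are descriptions only. Cxcr4 lies on chromosome 1, which is not among those 4 chromosomes. Its ligand Cxcl12 had a single window within 50 kb, 13955 bp downstream (chr6:117132300-117132799).

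Ccr4 and Ccr9 had 7 such windows each. Ccr4, the receptor for Ccl17 and Ccl22 on Th2 and regulatory T cells, had no promoter window, its nearest window lay 2191 bp upstream (chr9:114407603-114408102) and its farthest 33733 bp downstream (chr9:114371173-114371672). The others lay 6324, 8207 and 30767 bp upstream (chr9:114411736-114412235, chr9:114413619-114414118 and chr9:114436179-114436678) and 15979 and 19219 bp downstream (chr9:114388927-114389426 and chr9:114385687-114386186). Of the Ccr9 windows, 3 lay in introns of Slc6a20a between 15959 and 18806 bp upstream (chr9:123568501-123569000, chr9:123569205-123569704 and chr9:123571348-123571847), and others in the introns of Ccr9 itself (chr9:123663423-123663922 and chr9:123684773-123685272).

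Cxcr5, the Cxcl13 receptor of B cells and follicular helper T cells, had 6 windows of its own and 17 within 50 kb, the most of any member. Of its own windows 3 lay in its intron (chr9:44323696-44324195, chr9:44325865-44326364 and chr9:44328394-44328893), 1 in its exon (chr9:44322134-44322633), and 2 lay 24816 and 37880 bp upstream (chr9:44359070-44359569 and chr9:44372134-44372633). The PU.1 and Spic word, read by Ets factors of macrophages and B cells, was in 4 of these 6, beside 21.1% of all windows. Cx3cr1, the fractalkine receptor of monocytes and macrophages, had 5 of its own and no promoter window. Its 3 intronic windows (chr9:119963598-119964097, chr9:119963992-119964491 and chr9:119967764-119968263) all held the PU.1 and Spic word, at 2 distinct places, since the 2 windows that overlap share 1 match and also share 1 match to the RUNX word. Those 4380 and 5068 bp upstream (chr9:119981530-119982029 and chr9:119982218-119982717) held none of the 10 words.

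Cxcr6, a receptor of resident T cells and NKT cells, also had 5 of its own, each within the gene Fyco1 in which it lies (chr9:123702136-123702635, chr9:123717686-123718185, chr9:123722953-123723452, chr9:123727738-123728237 and chr9:123737875-123738374). Cxcr3 had 5, all within 4147 bp of its start site, where windows in an exon (chrX:98927603-98928102) and upstream (chrX:98932641-98933140 and chrX:98933505-98934004) joined the promoter windows. Among ligands Ccl1, a Ccr8 ligand, had 5, of which 3 lay in introns of its longer transcripts (chr11:81996726-81997225, chr11:82006920-82007419 and chr11:82030888-82031387) and 2 beyond them (chr11:82156968-82157467 and chr11:82158402-82158901). The RUNX word was in 3 of these 5, beside 11.6% of all windows.

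Xcl1, Cxcl2, Ccl25 and Cx3cl1 tied at 4. Xcl1, which NK cells and CD8 T cells release to attract cross-presenting dendritic cells, had windows 9976 and 30527 bp upstream (chr1:166875384-166875883 and chr1:166895935-166896434) and 36961 and 49840 bp downstream (chr1:166828447-166828946 and chr1:166815568-166816067). Cx3cl1, the membrane-bound fractalkine, had a window 11100 bp upstream (chr8:97284559-97285058) and 3 between 11821 and 15917 bp downstream (chr8:97307696-97308195, chr8:97309635-97310134 and chr8:97311792-97312291). All 3 downstream windows held the AP-1 word, beside 18.4% of all windows. Cxcl2 had, besides its promoter windows, a window 3251 bp upstream (chr5:91329396-91329895) and a window 5221 bp downstream (chr5:91337870-91338369).

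Joined where their start sites lay within 100 kb of each other and measured with 50 kb on either side, the members formed 30 loci, of which 12 held 2 or more and took in 39 members. Of these 12 the densest were Cx3cr1 with Ccr8 on chromosome 9, with 13 windows in 0.124 Mb (104.96 per Mb, against 47.1 around the protein-coding genes of the chromosome), and Ccl22 with Cx3cl1 and Ccl17 on chromosome 8, with 16 windows in 0.165 Mb (97.05 per Mb, against 58.8). In each of these loci 8 windows were nearest to a member, and the others were nearer to other genes. Ccl17, the other Ccr4 ligand, had a window 3489 bp upstream (chr8:97330614-97331113). Ccr9 with Cxcr6 and Xcr1 held 19 windows in 0.284 Mb (67.0 per Mb), none of which was nearest to Xcr1, the dendritic cell receptor of Xcl1. In mm9 14.0% of the bases of this locus are unknown, some of them within 1 kb of the Xcr1 start site, and no window can be called there. On the same chromosome 0.103 Mb around Ccr1, Ccr1l1 and Ccr3 was without a window.

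The CC ligands of chromosome 11 formed a pair of unlike clusters. That of Ccl2, Ccl7, Ccl11, Ccl12, Ccl8 and Ccl1 held 8 windows in 0.370 Mb, and 0.180 Mb between chr11:81817138 and chr11:81996976 held none. This gap covers Ccl2, Ccl7, Ccl12 and Ccl8, which attract monocytes, and the eotaxin Ccl11. Of 2391 gaps between neighbouring windows of chromosome 11, 4.98% were at least as long, and the median gap was 21.2 kb. In the 2 kb around the start sites of these 5 genes at least 99% of 32-base words occurred once in the genome. Ccr2, the receptor for Ccl2, Ccl7 and Ccl12, had a single window within 50 kb, 23579 bp away. The cluster of Ccl5, Ccl9, Ccl6, Ccl3 and Ccl4 held 8 windows in 0.232 Mb, of which 7 were nearest to a member. The RUNX word was in 5 of these 7, near Ccl5, Ccl9 and Ccl3, beside 11.6% of all windows.

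Of the 9 members without a window within 50 kb, all ligands, 4 lie in a repeated region of chromosome 4. Ccl19, Ccl21a, Ccl21c and Ccl27b had no 32-base word around the start site that occurs once in the genome, and Ccl21b, whose nearest window lay 38723 bp away, had none either. Ccl19 and the Ccl21 genes call dendritic cells and T cells into lymph nodes through Ccr7. Short reads from repeated sequence may not map to a single place. How far the authors' read pairs could be placed there was not tested. Of Ccl27a 32.3% of the words were unique. The other 5 were Ccl8, Ccl11 and Ccl12, the B cell chemokine Cxcl13 (nearest window 55561 bp away) and Cxcl14 (56546 bp away), in all of which the start region was unique.

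The members not yet described had between 1 and 8 windows within 50 kb. Those of Cxcl17 (7) and Xcr1 (8) were all nearer to other genes, as were those of Cxcl16 (4), the membrane-bound ligand of Cxcr6, and of Ccr10 (3), the Ccl27a receptor. Ccl20, the Ccr6 ligand, had its single window 2937 bp downstream (chr1:83116036-83116535). Cxcr1, a neighbour of Cxcr2, and Ccr7, the lymph node homing receptor, had 4 each, with the nearest at 15790 bp and 11206 bp. Ccr1 and Ccr1l1 had 3 each, none of them within 30 kb, and Ccr3, the eotaxin receptor, had 1 at 16060 bp.

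By family, 5 of 23 CC ligands and 4 of 12 CXC ligands had a promoter window, and 4 of 11 CC receptors and 3 of 7 CXC receptors. The XC and CX3C families had none, and the share over all protein-coding genes was 43.5%. In the lists by use, 2 of 9 homeostatic ligands and 5 of 15 inflammatory ligands had a promoter window, with a median of 0 and 3.00 windows within 50 kb. Of these 9 homeostatic ligands 4 (Ccl19, Ccl21a, Ccl21b and Ccl21c) lie in the repeated region with no unique word, and Ccl27a had 32.3% of its words unique.

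Known partners were set side by side in 28 ligand and receptor combinations. Both genes had a promoter window in 5 of them, among them Ccl25 with Ccr9, Cxcl10 with Cxcr3, and Cxcl1 and Cxcl2 with Cxcr2. The ligand alone had one in 2, the receptor alone in 7 and neither in 14. Over all members 24.3% of ligands and 35.0% of receptors had a promoter window, against 43.5% of all protein-coding genes. Some genes, such as Cxcr2 and Ccr2, are in several combinations, so these counts are not independent. The promoter window of Ccl25 also lies within 1 kb of the start of Elavl1. That of Ccr9 also lies within 1 kb of the starts of Slc6a20a and Gm17200. Since all cells were pooled, the windows of partners need not come from the same cells.

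The NF-kB word was in a larger share of ligand windows than of all windows. NF-kB is the family of factors that inflammatory signals bring to the nucleus. Its word was in 14 of 83 ligand windows (16.9%, exact interval 9.54% to 26.7%) and 11 of 94 receptor windows (11.7%, interval 5.99% to 20.0%), against 7.28% of all windows. The receptor interval includes that background. Among windows farther than 1 kb from any start site, 15.1% of ligand windows and 10.3% of receptor windows held it, against 6.50% of all. In the 21 windows within 1 kb of a member's start site it was in 6 (28.6%, interval 11.3% to 52.2%), against 9.43% of all 13310 windows at start sites. Those windows averaged 54.1% GC, against 59.3% at all start sites. The full GGGAATTTCCC of Cxcl1, Cxcl2 and Cxcl3 was found in 28 of 50000 windows, and 3 of these 28 are the promoter windows of these genes. It was picked out after the matches had been seen. Windows of paralogs and overlapping windows share sequence, so they are not independent, and the intervals are too narrow to that extent.

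The RUNX word was in 19.3% of ligand windows and 17.0% of receptor windows (members together 18.1%, interval 12.7% to 24.6%), against 11.6% of all windows. The HIF core, the letters read by hypoxia-inducible factors, was in 39.8% of ligand windows (interval 29.2% to 51.1%) and 28.7% of receptor windows, against 27.6% of all. The AP-1 word, read by Jun and Fos, was in 24.1% and 19.1% of ligand and receptor windows, against 18.4% of all, and over 1 kb from a start site in 34.0% of ligand windows (interval 21.5% to 48.3%), 19.1% of receptor windows and 21.2% of all. PU.1 and Spic words were in 22.9% of ligand windows and 24.5% of receptor windows, against 21.1% of all, and over 1 kb from a start site in 22.6% and 30.9%, against 21.0%. The intervals of ligand and receptor windows overlapped for each of the 10 words.

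For the other words the shares lay close to the background. The CEBP word was in 14.5% of ligand windows and 13.8% of receptor windows, against 17.3% of all, and the IRF word in 7.23% and 7.45%, against 5.51%. The TEAD word was in 24.1% and 22.3%, against 24.3%, the STAT word in 2.41% and 1.06%, against 1.67%, and the CTCF word in 1.20% and 1.06%, against 1.58%. At least 3 of the 10 words were found in 21 of 83 ligand windows (25.3%) and 13 of 94 receptor windows (13.8%), against 13.9% of all windows.

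**Figure D4:**
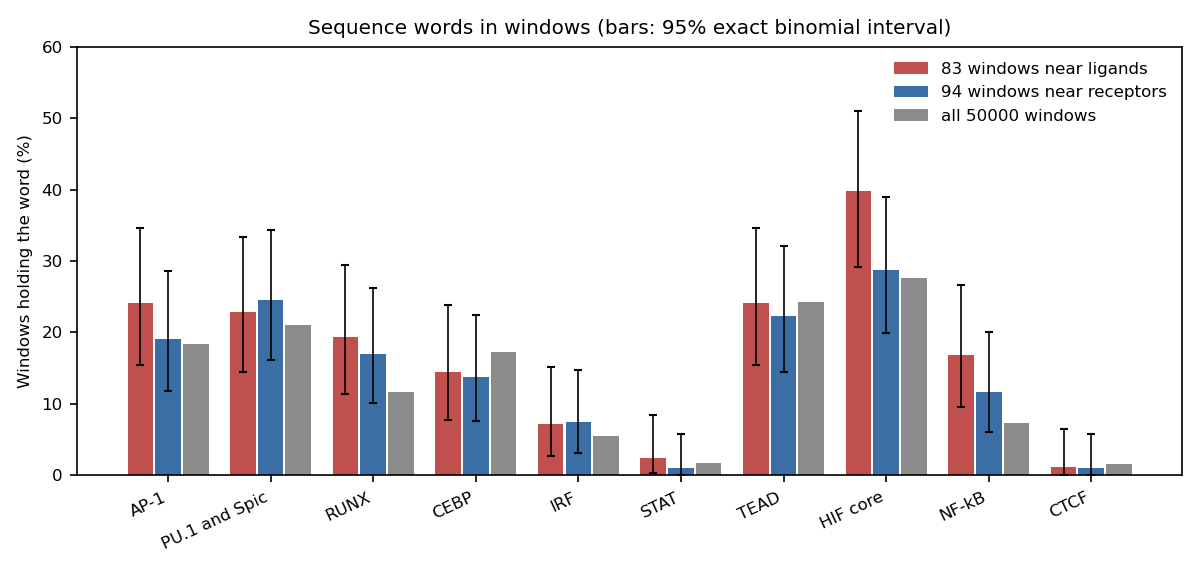
Bars give the percentage of windows (y axis) that hold each of 10 factor words, for 83 windows within 50 kb of ligands, 94 within 50 kb of receptors and all 50000 windows. Error bars are 95% exact binomial intervals for counting error. The NF-kB word is in 16.9% of ligand windows and 11.7% of receptor windows, against 7.28% of all.

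By place, 30 of the 83 ligand windows (36.1%) and 26 of the 94 receptor windows (27.7%) lay within 1 kb of any annotated start site, 15 and 26 in introns, 5 and 4 in exons, and 33 and 38 between genes. Of ligand windows 44 (53.0%) and of receptor windows 59 (62.8%) were nearer to a start site of the same class of gene than to any other protein-coding start site.

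Most listed genes that act downstream of chemokine receptors had a promoter window. These were 23 of 25 signalling genes (92.0%), with the listed integrins and proteases left out, against 43.5% of all protein-coding genes. The 25 had a median of 7.00 windows within 50 kb. With the integrins and proteases it was 27 of 32 (84.4%). The CpG content of these genes was not taken into account, and in the class richest in CpG 70.7% of protein-coding genes had a promoter window. All 5 G protein genes had one, as did Prex1, a Rac activator of leukocytes, which had 25 windows within 50 kb. Of the receptor kinases, arrestins and RGS proteins 6 of 7 had one, without Rgs16, and of the PI3K and phospholipase C genes 4 of 5, without Pik3r5. Atypical receptors, which bind chemokines without G protein signalling, had one in 1 of 4, namely Ccrl2, with 12 windows within 50 kb, while Darc had none within 50 kb. Of the ligands under other symbols Pf4 had a promoter window, 495 bp from its start site, and Ppbp had none.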

How the data were processed

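Single-cell Pi-ATAC libraries of 384 wells were processed by the authors. Read pairs were mapped to mm9 with Bowtie2 2.1.0, duplicates were removed with Picard 1.79, cells were aggregated, and summits were called with MACS2 at q below 0.05 (the sources used here give no MACS2 version). The 50000 best were deposited as windows of 500 bp. The deposited values are of unit other (positions), with no score, so depth per well and window is unknown and no test between genes was made. Here windows were placed by their centres relative to start sites of all annotated transcripts (GENCODE vM1), and sequences were read from NCBIM37. The 2 records of Ccl25 were merged. Cxcl11, typed as a processed transcript, and Ccl28 were not analysed here. Intervals are exact (95%).

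Members, lists and words were chosen with earlier results of these data known. Counts cover all members, and 1 receptor is not reported here by name. The other members were named, with full positions for those with a promoter window and for the 10 with most windows nearest to their own start site (12 with ties). Printed sequences were limited to promoter stretches holding a word and distal windows with 4 or more words. Distances, start sites, chromosomes and the unique-word limit of 80% were varied. The placing was tested on simulated data, where 200 of 200 planted genes of 1000 were recovered. Python 3.11.15, numpy 2.4.6, scipy 1.17.1, pysam 0.24.0 and matplotlib 3.10.9 were used.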

Additional observations from a re-analysis of the deposited data

How the results depend on the processing

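No paired analysis was possible because the data are 1 pooled list of 1 group. Leaving out replicates could not be done for the same reason, and a stricter peak threshold was not run because the list holds no score. With a reach of 10 kb a window was found for 51.4% of ligands and 65.0% of receptors (all protein-coding genes 61.4%), at 42.8 and 72.8 windows per Mb (44.1), and with 100 kb for 89.2% of ligands (91.9%). Without chromosomes 7, 8, 9 and X the density was 24.9 per Mb for ligands and 40.0 for receptors, and without chromosome 9 that of receptors was 41.4. The promoter share of receptors ran from 25.0% (500 bp or the outermost start site alone) to 50.0% (without chromosome 9), and that of ligands from 14.8% (without chromosome 5) to 32.0% (without chromosome 11). With 500 bp or 2 kb as the promoter distance, 40.1% and 47.0% of all protein-coding genes had a promoter window. An AP-1 word limited to TGAGTCA or TGACTCA, chosen after seeing the data, was in 16.9% of members' windows and 13.5% of all windows.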

Other observations

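Genes that shape chemokine action at the cell surface were also looked up. Of the integrins that chemokine signals activate, Itga4 and Itgb1 had promoter windows, 42 and 55 bp from a start site, while the leukocyte integrin genes Itgb2 and Itgal had their nearest windows at 6443 bp and 11127 bp. Of 3 proteases that cut chemokines 2 had a promoter window, namely Adam10 and Adam17. Dpp4, which removes the ends of several CXC and CC ligands, had 1 window within 50 kb, at 28878 bp. The share of all protein-coding genes with a promoter window was 43.5%.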
